A study of Mus musculus with 5 samples.

Results

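Kinesins are motor proteins that walk along microtubules or take their ends apart, using ATP. The kinesin genes described here are the rows of a retinal expression table whose symbol is Kif or Kifc followed by a number and at most 1 letter, with a mean normalised read count of at least 10 over 5 libraries. Of 42 such symbols 39 met that level, among 16316 genes that did so and 24594 genes in all. By their known work in mouse and other mammalian cells, 13 were taken as mitotic motors, 17 as motors of transport in neurons and other cells, and 9 as neither. The symbol rule and the level used no difference between groups, but the classes were chosen with earlier results of these data known. The symbols that fell short were Kif2b, listed at 0 in every library, Kif12 (mean 0.436) and Kif28 (mean 1.65), and the lowest one kept was Kif17 (mean 35.0).

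The 3 Zfp292-OE libraries came from mouse retinas electroporated in the living pup on postnatal day 0 with a plasmid that expresses Zfp292, a nuclear zinc finger protein, from the CAG promoter, a strong promoter active in most cell types. The 2 control libraries came from retinas given CAG-GFP in the same way. In both groups the tissue was collected 4 days after electroporation, and cells with GFP fluorescence, named RPC in the labels, were sorted for RNA sequencing. The labels give neither the strain nor the number of animals behind a library, so the p-values here rest on the spread among libraries alone, and that spread may be technical.

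At this age the mouse retina holds dividing progenitors beside newly born rods, bipolar cells and Müller glia. A dividing cell uses one set of kinesins to build the spindle, to move and align chromosomes and to separate the daughter cells, and the genes of this set are switched on towards mitosis. A neuron has left the cell cycle and uses another set to carry synaptic vesicle precursors, mitochondria, membrane proteins and ciliary parts along its axon, dendrites and, in photoreceptors, the connecting cilium.

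Reads assigned to genes numbered 114197740, 135442444 and 117441152 in Zfp292-OE libraries 1, 2 and 3, against 103096224 and 137683716 in control libraries 1 and 2. Zfp292 itself read 14631, 13197 and 15534 in Zfp292-OE libraries 1, 2 and 3, against 13288 and 14756 in control libraries 1 and 2, a log2 fold change of 0.04 (95% interval −0.28 to 0.37, limma adjusted p = 0.87). The groups overlapped for this gene, so the group names below follow the labels, with no measured rise in Zfp292 behind them.

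Markers of progenitors were present in every library, and 4 of 10 rose and 1 fell, with summed normalised read counts of 323169 to 376958 in the Zfp292-OE libraries and 232721 to 253674 in the control libraries. All 8 rod markers fell, with sums of 150855 to 162745 in the Zfp292-OE libraries and 533219 to 655193 in the control libraries. Of 8 bipolar markers 0 rose and 6 fell (sums of 122161 to 208241 in the Zfp292-OE libraries and 134581 to 183079 in the control libraries), and Grm6, Vsx1 and Bhlhe23 were at 0 in at least 1 library. Otx2, which rods and progenitors leaving the cycle also use, made up most of that sum, and the other 7 summed to 4526 to 6162 in the Zfp292-OE libraries and 23719 to 26751 in the control libraries. Of 8 Müller glia and astrocyte markers 1 rose and 5 fell (sums of 246946 to 326081 in the Zfp292-OE libraries and 541366 to 680233 in the control libraries). Of 7 tested endothelial and mural markers Cldn5 rose and 3 fell (sums over 8 of 35077 to 44049 in the Zfp292-OE libraries and 42842 to 49591 in the control libraries), and Cdh5, Rgs5, Acta2 and Kcnj8 were at 0 in at least 1 library. Kdr made up most of these sums, and the other 7 summed to 2208 to 3453 in the Zfp292-OE libraries and 1222 to 2922 in the control libraries. The mural gene Rgs5 read 0 to 16.0 in the Zfp292-OE libraries, against 1233 and 461 in the control libraries. None of 8 microglia markers passed in limma or edgeR (sums of 3022 to 6541 in the Zfp292-OE libraries and 4370 to 10505 in the control libraries), though Csf1r had an unadjusted p of 0.041 in limma, and Zfp292-OE library 3 was the lowest of its group for 7 of 8. Tmem119 and Csf1r were at 0 in at least 1 library. Of 10 amacrine, horizontal and ganglion cell markers 0 rose and 1 fell, beside 10% higher and 7.38% lower over all tested genes. The part of these markers in the kinesin results was not tested. In bulk libraries of this kind, fewer cells of a type and less RNA per cell cannot be told apart.

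The mitotic kinesins were higher and several transport kinesins lower in the libraries labelled Zfp292-OE, which are called Zfp292-OE by that label alone. Of the 13 mitotic kinesins, 10 rose, 0 fell and 3 did not pass the test (limma on log2 values, adjusted p below 0.05 over all 16316 genes), with a median log2 fold change of 2.45. Over all tested genes 1632 rose, or 10%, and 1204 fell, or 7.38%, and the median log2 fold change was −0.06. With all libraries scaled to equal totals 913 of all genes rose and 1986 fell. Of the 17 transport kinesins, 0 rose, 4 fell and 13 did not pass, with a median of −0.45 and a range of −2.77 to 0.57. The fold change was positive for 13 of 13 mitotic kinesins, and negative for 14 of 17 transport kinesins. The groups did not overlap for 13 of 13 mitotic and 10 of 17 transport kinesins, against 49.9% of all tested genes. Of the 9 other kinesins 0 rose, 1 fell and 8 did not pass, with a median of −0.48.

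With either control library left out, 1 control library remains, the spread comes from the Zfp292-OE libraries alone and the lone control is assumed to vary as they do. The median log2 fold change of the mitotic kinesins was then 2.49 without control library 1 and 2.16 without control library 2. In these smaller fits limma passed 0 of the 39 kinesins and 0 of all genes (4389 genes had an unadjusted p below 0.05 without control library 1 and 3520 without control library 2), although all 10 mitotic kinesins that had passed kept an unadjusted p below 0.05 in each of these fits, with adjusted p of 0.074 to 0.17 without control library 1 and 0.13 to 0.20 without control library 2. Of the 4 transport kinesins that fell, 2 passed without Zfp292-OE library 1, and 2 without library 2. With no filter on low values 0 mitotic kinesins and 1 transport kinesin passed. On recovered whole reads edgeR called 10 mitotic kinesins higher and 3 transport kinesins lower, against 8.28% of all genes higher and 7.78% lower. DESeq2 called 10 mitotic kinesins higher and 7 transport kinesins lower, against 14.2% and 11.2%.

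**Figure D1:**
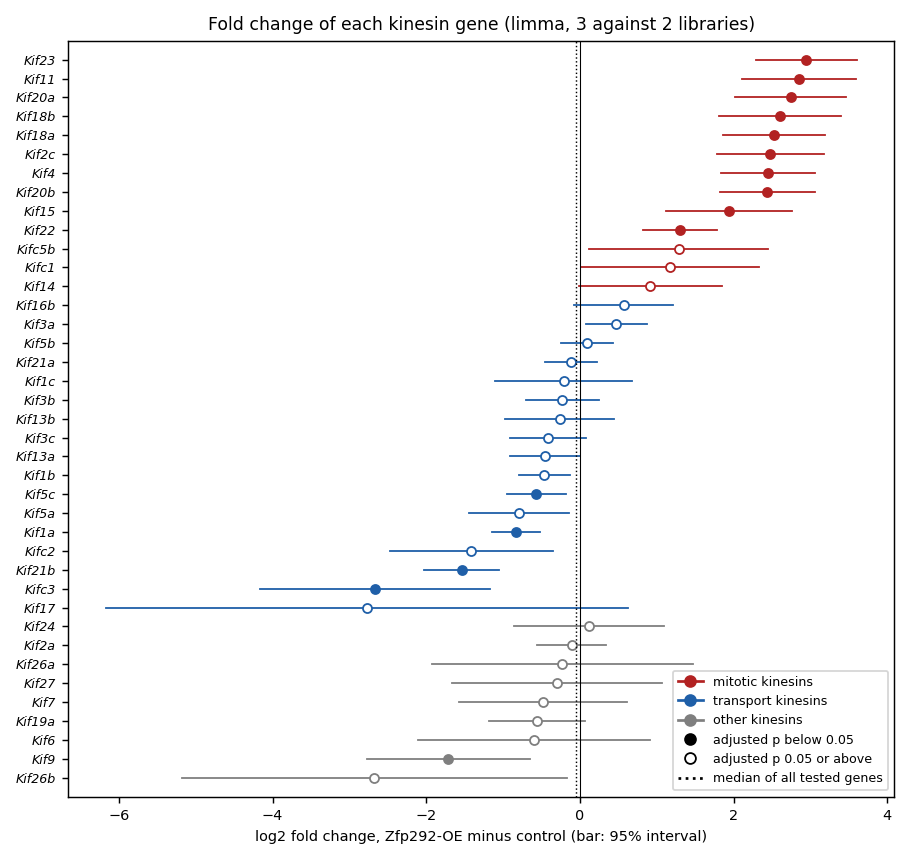
Log2 fold change of each of the 39 kinesin genes, Zfp292-OE minus control (x axis), with bars for the 95% interval from limma over 3 and 2 libraries, ordered by class and size. All 13 mitotic kinesins lie to the right of 0, from 0.92 to 2.95, and the transport kinesins lie between −2.77 and 0.57, 14 of 17 of them to the left of 0.

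Counts grow with transcript length, so levels were set side by side per kb of each gene's longest annotated coding transcript. On this scale the mitotic motors made up 55.0%, 60.5% and 45.5% in the Zfp292-OE libraries, against 20.4% and 17.7% in the control libraries, as a share of the summed kinesin level. The transport motors made up 39.7%, 35.6% and 49.6% in the Zfp292-OE libraries, against 71.2% and 73.9% in the control libraries. Neither share overlapped between the groups. The summed level of the mitotic motors was 19047 ± 5731 per kb (SD, n = 3) in Zfp292-OE and 4433 ± 389 per kb (SD, n = 2) in control. The summed level of the transport motors was 14253 ± 352 per kb (SD, n = 3) in Zfp292-OE and 16894 ± 629.9 per kb (SD, n = 2) in control.

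**Figure D2:**
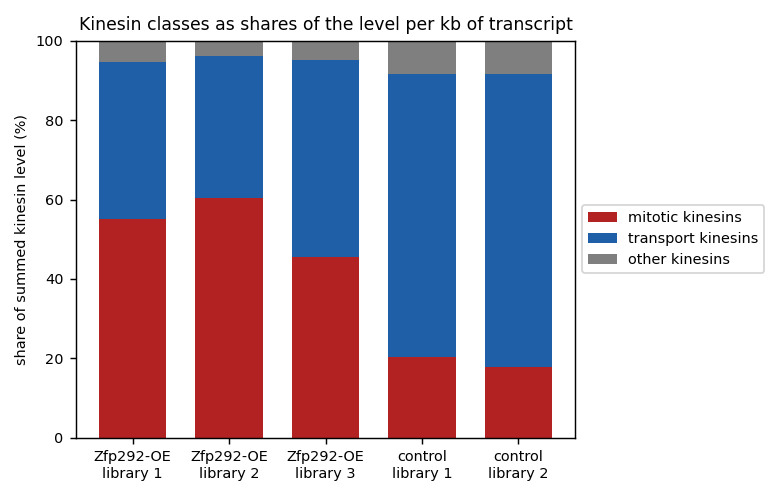
Share of the summed kinesin level (normalised read count per kb of transcript, %) held by mitotic, transport and other kinesins in each library. Mitotic kinesins hold 45.5% to 60.5% in the 3 Zfp292-OE libraries and 17.7% to 20.4% in the 2 control libraries.

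Many promoters of genes used in late G2 and mitosis are known to carry a CHR element (cell cycle genes homology region), written TTTGAA, often with CCAAT boxes that the factor NF-Y binds upstream of it. The stretches below, from RefSeq on GRCm38.p6, run from 120 bases before to 30 bases after the annotated start, 5′ to 3′ on the gene's strand. They are shown so that 4 mitotic motors that rose and hold both motifs there (Kif4 does too) can be set beside starts of the transport motors Kif1a and Kif5c, which fell, with neither. The other annotated start of Kif1a, not printed, has TTTGAA 44 bases before it. Capitals mark CCAAT and TTTGAA on either strand (ATTGG and TTCAAA on the other). The stretches are chr19:37376262-37376411 on the plus strand, chr7:127042391-127042540 on the minus strand, chr9:61946770-61946919 on the minus strand and chr11:102925095-102925244 on the minus strand for the mitotic motors. Those of the transport motors are chr1:93101845-93101994 on the minus strand, its more upstream start, and chr2:49619166-49619315 on the plus strand.
Kif11: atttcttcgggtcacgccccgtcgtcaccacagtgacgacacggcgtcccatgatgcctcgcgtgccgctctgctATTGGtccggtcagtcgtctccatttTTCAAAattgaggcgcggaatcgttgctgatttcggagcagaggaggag
Kif22: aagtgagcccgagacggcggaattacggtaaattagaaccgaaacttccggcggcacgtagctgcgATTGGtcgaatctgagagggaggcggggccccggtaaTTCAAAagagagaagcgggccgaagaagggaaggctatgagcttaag
Kif23: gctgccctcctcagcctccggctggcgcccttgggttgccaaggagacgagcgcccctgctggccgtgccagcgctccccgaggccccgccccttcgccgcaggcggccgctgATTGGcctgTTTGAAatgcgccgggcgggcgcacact
Kif18b: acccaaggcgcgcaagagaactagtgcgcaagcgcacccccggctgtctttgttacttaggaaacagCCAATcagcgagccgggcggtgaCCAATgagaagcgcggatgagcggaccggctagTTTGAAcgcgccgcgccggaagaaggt
Kif1a: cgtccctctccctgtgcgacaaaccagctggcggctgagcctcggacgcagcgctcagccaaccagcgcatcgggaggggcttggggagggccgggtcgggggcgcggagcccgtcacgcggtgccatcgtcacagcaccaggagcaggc
Kif5c: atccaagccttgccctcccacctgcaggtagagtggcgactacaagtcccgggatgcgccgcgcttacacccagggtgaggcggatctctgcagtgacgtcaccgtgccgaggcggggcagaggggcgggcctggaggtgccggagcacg

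Promoter windows of 300 bases, 250 before to 50 after the start, were found for 31 of the 39 kinesin genes, some with more than 1 start. TTTGAA on either strand was present in 11 of 12 windows of mitotic kinesins, 1 of 13 of transport kinesins and 2 of 10 of other kinesins, against 12.4% of the 16174 windows found for tested genes and 17.9% of all 32851 windows in the reference. The transport window that held it was the more downstream start of Kif1a. CCAAT was present in 8 of 12 windows of mitotic kinesins and 4 of 13 of transport kinesins, against 37.8% of windows of tested genes. Both motifs stood in 8 of 12 windows of mitotic kinesins and 0 of 13 of transport kinesins, against 5.09% of windows of tested genes. Another pattern, TTTNNCGC, which E2F factors can bind, was in 2 of 12 mitotic and 1 of 13 transport windows, against 7.69% of those of tested genes. The 3 patterns cannot start at the same base, though neighbouring matches may share letters. In 9 of 12 windows of mitotic kinesins TTTGAA began within 30 bases of the start, a distance chosen after the positions were seen, against 0 of 13 windows of transport kinesins and 2.03% of windows of tested genes (3.14% of all windows). Kif18a, which rose, had no TTTGAA or CCAAT in its window. Kif15, Kif20b and Kif2c, which also rose, had TTTGAA and no CCAAT. Kif14, Kifc1 and Kifc5b, the mitotic kinesins that did not pass, all had both motifs. No window was found for Kif20a, which rose, or for Kif21b and Kifc3, which fell. Letters in a window are a description and show no binding.

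**Figure D3:**
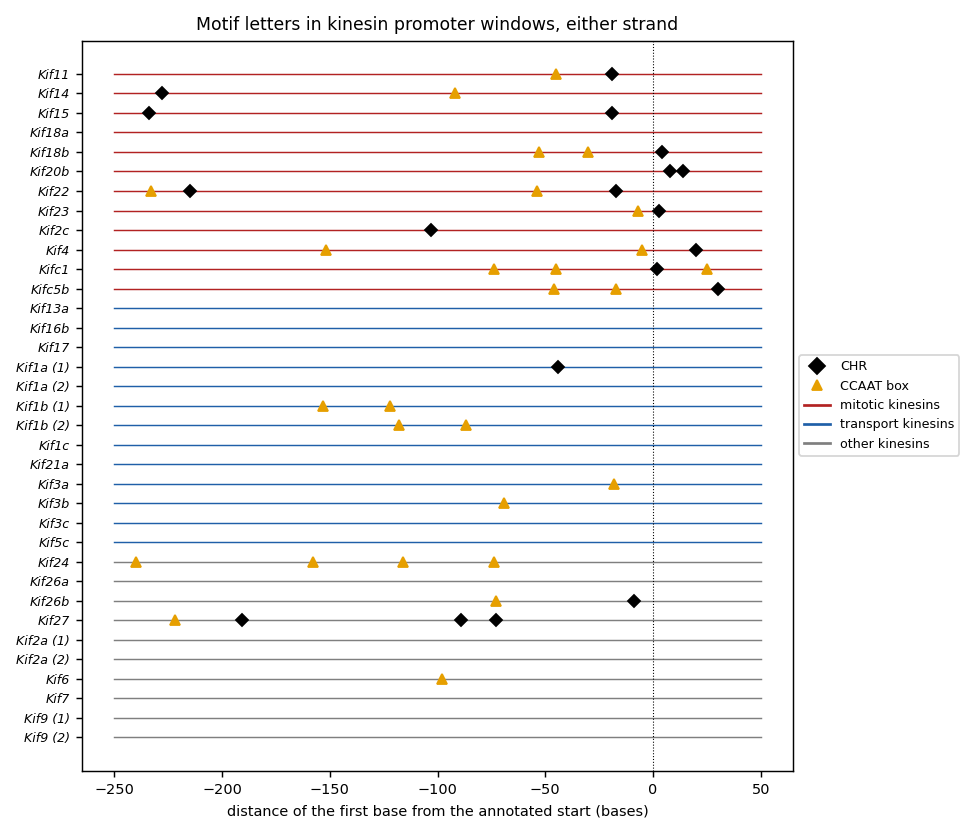
Positions of the CHR letters (diamonds) and CCAAT boxes (triangles), on either strand, in the promoter windows of the kinesin genes, as distance in bases from the annotated start. Lines are windows coloured by class. In the mitotic windows 9 of 12 have a diamond within 30 bases of the start, and in the transport windows 0 of 13.

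The motors that set up the spindle differed in how far they moved. Kif11, also called Eg5, slides antiparallel microtubules apart to push the spindle poles away from each other (Entrez 16551, chromosome 19, 37376382 to 37421863, GRCm38). It read 8561, 8756 and 4335 in Zfp292-OE libraries 1, 2 and 3, against 1241 and 732 in control libraries 1 and 2. The lowest Zfp292-OE library stood well above the higher control, and the means were 7217 ± 2498 (SD, n = 3) in Zfp292-OE and 987 ± 359.9 (SD, n = 2) in control (log2 fold change 2.85, SE 0.33, limma adjusted p = 0.00074). Kif15, which can hold the spindle open when Kif11 is blocked, read 6323, 5764 and 2399 in the Zfp292-OE libraries, against 1111 and 1201 in the control libraries (log2 fold change 1.94, SE 0.37, limma adjusted p = 0.0074). Its rise was smallest in Zfp292-OE library 3, and it missed the threshold without Zfp292-OE library 1 and without library 2 (adjusted p = 0.054 in both). The minus-end motor Kifc1, known as HSET in human cells, clusters spindle poles. It read 476, 496 and 216 in the Zfp292-OE libraries, against 146 and 183 in the control libraries, a log2 fold change of 1.18 that did not pass (adjusted p = 0.15). Its close copy Kifc5b read 319, 406 and 202 in the Zfp292-OE libraries, against 119.9 and 122 in the control libraries (log2 fold change 1.29, adjusted p = 0.12). Neither pair of groups overlapped, and Zfp292-OE library 3 was the lowest of its group for both. These copies are uncertain as separate genes, since 45.8% of all stretches of 50 bases in the longest Kifc1 transcript also occur in Kifc5b.

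Among the motors that work on chromosomes and microtubule ends, 5 of 5 rose, against 10% of all tested genes. Kif18a shortens kinetochore microtubules and damps the swings of chromosomes at the metaphase plate (Entrez 228421, chromosome 2, 109280738 to 109341749). It read 17751, 17794 and 8348 in Zfp292-OE libraries 1, 2 and 3, against 2363 and 2452 in control libraries 1 and 2. Libraries 1 and 2 of Zfp292-OE were close to each other at more than the level of library 3, which itself exceeded both controls (log2 fold change 2.52, SE 0.30, limma adjusted p = 0.00076). Its relative Kif18b, which acts on the plus ends of astral microtubules, read 2633, 2972 and 1384 in the Zfp292-OE libraries, against 336 and 392 in the control libraries (log2 fold change 2.61, SE 0.35, limma adjusted p = 0.0015). Kif2c, or MCAK, takes microtubules apart at the centromere to correct wrong attachments, and read 2155, 2893 and 1844 in the Zfp292-OE libraries, against 505 and 324 in the control libraries (log2 fold change 2.48, SE 0.31, limma adjusted p = 0.001). The groups were far apart for each of these motors.

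The chromokinesins bind chromatin directly. Kif4 helps to shape chromosome arms and to set the length of the central spindle, and read 3157, 2892 and 2248 in the Zfp292-OE libraries, against 594 and 424 in the control libraries (log2 fold change 2.45, SE 0.27, limma adjusted p = 0.00059). Of its longest transcript, 16.7% overlaps exons of Pdzd11 on the other strand, and whether the counting used strand is not given. Kif22, or Kid, pushes chromosome arms away from the poles, and read 9936, 14656 and 8739.5 in the Zfp292-OE libraries, against 4573 and 4249 in the control libraries. It was the mitotic motor with the highest level per kb in control, 5253 in Zfp292-OE and 2086 in control, and its rise was among the smaller ones (log2 fold change 1.30, SE 0.22, limma adjusted p = 0.004).

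The motors of the central spindle and cytokinesis rose, apart from Kif14. Kif23, or MKLP1, forms the centralspindlin complex with Racgap1 (Entrez 71819, chromosome 9, 61917277 to 61946810). It read 7949, 9669 and 5112 in Zfp292-OE libraries 1, 2 and 3, against 1193 and 755 in control libraries 1 and 2. Its lowest Zfp292-OE library was several times its higher control, and the means were 7576 ± 2301 (SD, n = 3) in Zfp292-OE and 974 ± 310.2 (SD, n = 2) in control, a ratio of 7.78 (log2 fold change 2.95, SE 0.29, limma adjusted p = 0.00044). It had the largest limma fold change of the 39 kinesins. Kif20a, or MKLP2, brings the chromosomal passenger complex to the central spindle and read 3150.0, 4555 and 2147 in the Zfp292-OE libraries, against 521 and 420.5 in the control libraries (log2 fold change 2.74, SE 0.32, limma adjusted p = 0.00077). Exons of Cdc23 on the other strand overlap 34.6% of its longest transcript. Kif20b, which acts in the last steps of abscission, read 7863, 9919 and 5422 in the Zfp292-OE libraries, against 1722 and 1111 in the control libraries (log2 fold change 2.44, SE 0.28, limma adjusted p = 0.00067).

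Kif14, which recruits citron kinase to the midbody, read 963, 1154 and 476 in the Zfp292-OE libraries, against 457 and 401 in the control libraries. Its Zfp292-OE library 3 lay just above the controls, and its log2 fold change of 0.92 did not pass (95% interval −0.02 to 1.85, adjusted p = 0.16). Without Zfp292-OE library 3 it passed (log2 fold change 1.30, adjusted p = 0.046).

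**Figure D4:**
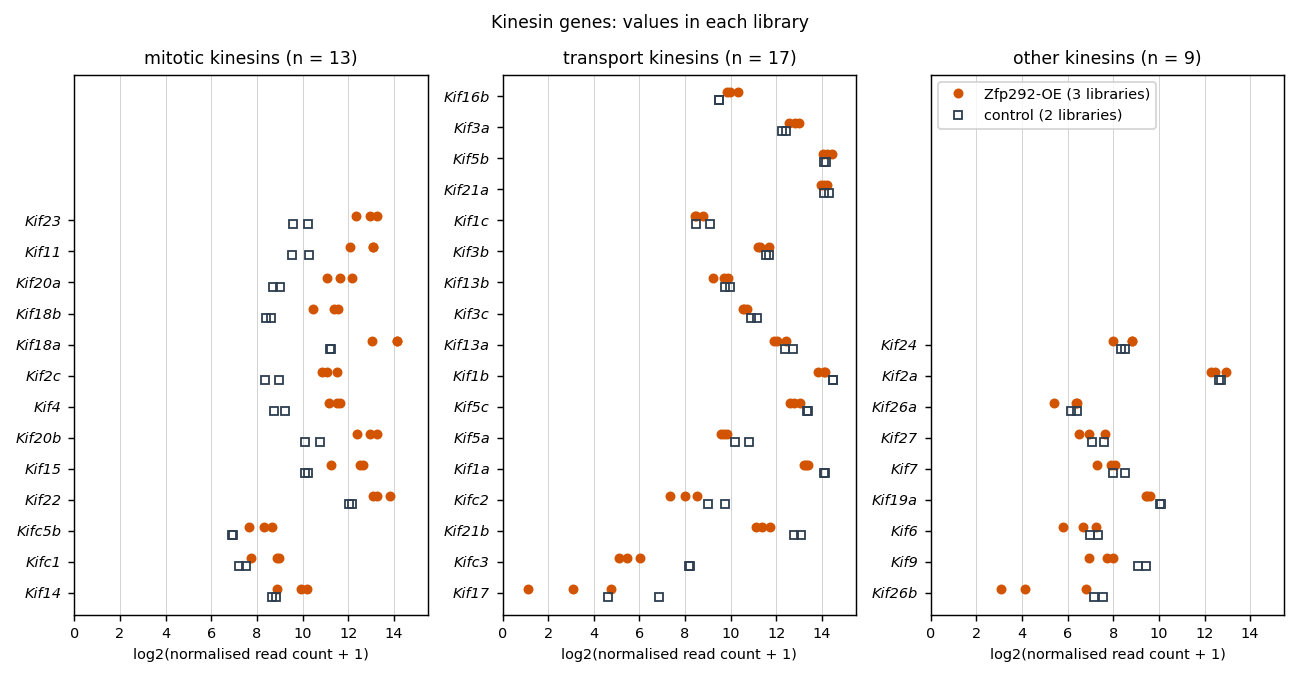
Values of the 39 kinesin genes in each library as log2(normalised read count + 1), with filled circles for the 3 Zfp292-OE libraries and open squares for the 2 control libraries, ordered within each class by fold change. In 13 of 13 mitotic kinesins and 10 of 17 transport kinesins the circles and squares keep apart, as the groups do in 49.9% of all tested genes.

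The rise was not equal in the 3 libraries labelled Zfp292-OE. Library 3 was the lowest of them for 13 of 13 mitotic kinesins. Relative to the control mean, the median of the mitotic kinesins on the log2 scale was 2.51, 2.84 and 1.93 in libraries 1, 2 and 3. Library 3 was also the lowest for all 8 proliferation markers, whose medians were 2.44, 2.78 and 1.69. All 8 of these markers rose, against 10% of all tested genes (sums of 152461 to 298801 in the Zfp292-OE libraries and 43393 to 47170 in the control libraries). For the transport kinesins the medians were −0.45, −0.65 and −0.42, and library 3 was the lowest for 6 of 17. The part of these markers in the kinesin result was not tested.

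Genes of proteins that work with the mitotic motors rose as well. Among 13 such genes, 10 rose, 0 fell and 3 missed the threshold, with a median log2 fold change of 2.44. Over all tested genes 10% rose and 7.38% fell. Tpx2, which brings Aurora A and Kif11 to spindle microtubules, read 16697, 21766 and 12190.5 in the Zfp292-OE libraries, against 2426 and 2339.7 in the control libraries (log2 fold change 2.78, SE 0.23, limma adjusted p = 0.00025). Ect2, which centralspindlin recruits to start the cleavage furrow, rose by 2.53 on the log2 scale (adjusted p = 0.0003), and Aurkb, the kinase that Kif20a carries to the central spindle, rose by 3.12 (adjusted p = 0.00032). All 3 had groups that kept apart. Those that did not pass were Incenp, a scaffold of the passenger complex (0.87), Numa1, a spindle pole protein used in interphase too (−0.09), and Kifbp, which binds and restrains several kinesins (−0.12).

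Of the transport motors, the kinesin-3 family carries vesicles over long distances. Kif1a, the motor of synaptic vesicle precursors and dense core vesicles (Entrez 16560, chromosome 1, 93015455 to 93102039), read 9970.2, 10644 and 9337 in Zfp292-OE libraries 1, 2 and 3, against 17488 and 17938 in control libraries 1 and 2. Every Zfp292-OE library was below both controls, and the means were 9984 ± 654 (SD, n = 3) in Zfp292-OE and 17713 ± 318 (SD, n = 2) in control (log2 fold change −0.83, SE 0.14, limma adjusted p = 0.0043). Kif1b, whose isoforms carry mitochondria and synaptic vesicle precursors, had a log2 fold change of −0.46, with values of 18101, 14437 and 17302 in the Zfp292-OE libraries, against 22634 and 22992 in the control libraries. It lay just over the threshold (adjusted p = 0.057) and passed in DESeq2 (0.017), after TMM scaling (0.046), after quantile normalization (0.0084) and with equal totals (0.012). The family's other members did not pass. Their log2 fold changes were −0.45 for Kif13a, a motor of endosomes and of the mannose 6-phosphate receptor, −0.26 for Kif13b and −0.21 for Kif1c. The endosome motor Kif16b had a positive value of 0.57 (adjusted p = 0.2), and its Zfp292-OE libraries, at 924 to 1290.3, lay above both controls at 717.

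The kinesin-1 heavy chains are a trio of related genes, of which Kif5b is used in most cells and Kif5a and Kif5c mainly in neurons. Kif5c read 6157, 8416 and 6909 in Zfp292-OE libraries 1, 2 and 3, against 10565 and 10451 in control libraries 1 and 2. The groups did not overlap, and it passed narrowly (log2 fold change −0.57, SE 0.17, limma adjusted p = 0.047), but not in edgeR (0.054), without Zfp292-OE library 1 (0.14), library 2 (0.057) or library 3 (0.10). Kif5a read 833, 925 and 766 in the Zfp292-OE libraries, against 1174 and 1808 in the control libraries, all lower than the controls, and did not pass (log2 fold change −0.80, SE 0.29, limma adjusted p = 0.089), though it did in DESeq2 (0.033) and with equal totals (0.046). Kif5b read 22012, 18775 and 17104 in the Zfp292-OE libraries, against 18342 and 17613 in the control libraries, and its groups overlapped. Its log2 fold change was 0.09, with a 95% interval of −0.24 to 0.43. Of the summed level per kb of the trio, Kif5b held 78.0%, 69.4% and 71.5% in the Zfp292-OE libraries, against 63.8% and 61.7% in the control libraries.

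Kinesin-2 is the motor of anterograde transport in cilia, built from Kif3a with Kif3b or Kif3c and the subunit Kifap3. Kif3a read 7307, 8101 and 6008 in the Zfp292-OE libraries, against 5423 and 4797 in the control libraries. It was one of 3 transport motors with a positive value, its groups did not overlap, and it did not pass (log2 fold change 0.47, SE 0.18, limma adjusted p = 0.097), although DESeq2 called it (0.049). Kif3b had a log2 fold change of −0.23 (95% interval −0.70 to 0.25), and Kif3c, the partner found mostly in neurons, had −0.42 (95% interval −0.91 to 0.08), with 38.5% of its longest transcript overlapped by exons of 1110002L01Rik on the other strand. Kif17, a motor of dendritic receptors and, in fish, of photoreceptor outer segments, was barely detected, at 1.14, 7.52 and 26.2 in the Zfp292-OE libraries, against 24.0 and 116 in the control libraries. Its groups overlapped and its 95% interval ran from −6.17 to 0.62.

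The kinesin-4 relatives Kif21a and Kif21b, which slow microtubule growth in neurites, parted. Kif21b read 2629, 2174 and 3337 in Zfp292-OE libraries 1, 2 and 3, against 7004 and 8628 in control libraries 1 and 2. The highest Zfp292-OE library was less than either control, and the means were 2713 ± 586 (SD, n = 3) in Zfp292-OE and 7816 ± 1148 (SD, n = 2) in control (log2 fold change −1.54, SE 0.22, limma adjusted p = 0.0017). Kif21a read 17149.8, 15927 and 19269 in the Zfp292-OE libraries, against 17335 and 20442 in the control libraries, with overlapping groups and a log2 fold change of −0.11 (95% interval −0.45 to 0.22). The 95% intervals of these relatives do not meet, while the difference between the genes was not itself tested.

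Of the minus-end motors of the kinesin-14 family that work outside mitosis, Kifc3 fell and Kifc2 did not pass. Kifc3, which acts at cell junctions and in apical transport, read 33.1, 42.3 and 63.8 in the Zfp292-OE libraries, against 293 and 285 in the control libraries. The ratio of means was 0.161 (log2 fold change −2.66, SE 0.67, limma adjusted p = 0.025). It missed the threshold without Zfp292-OE library 1 (adjusted p = 0.068) and without library 2 (0.062). Kifc2, a motor of neurons, read 254, 163 and 362 in the Zfp292-OE libraries, against 510.1 and 851 in the control libraries. All 3 were below both controls and the gene did not pass (log2 fold change −1.41, SE 0.48, limma adjusted p = 0.068), though it did in DESeq2 (0.030) and with equal totals (0.046).

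Genes that link transport motors to cargo fell in part. Of 18 light chains, adaptors and regulators, 0 rose, 8 fell and 10 missed the threshold, with a median log2 fold change of −0.69. That is 44.4% lower, beside 7.38% lower and 10% higher over all tested genes. Madd, which loads Kif1a and Kif1b with Rab3 vesicles, read 1577, 1669 and 2411 in the Zfp292-OE libraries, against 4198 and 4538 in the control libraries (log2 fold change −1.24, SE 0.23, limma adjusted p = 0.0071). The JNK scaffold Mapk8ip2 (log2 fold change −0.92, adjusted p = 0.014) and the light chain Klc3 (−1.44, adjusted p = 0.015) fell, and the groups of all 3 genes did not overlap. The kinesin-2 subunit Kifap3 had −0.22 (adjusted p = 0.36).

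Cytoplasmic dynein, the motor that runs the other way, moved little as a list. Of 19 genes of dynein, dynactin and their regulators, 1 rose, 2 fell and 16 missed the threshold, with a median of −0.08. These shares, 5.26% higher and 10.5% lower, were near the 10% and 7.38% over all tested genes. The gene that rose was Nde1, a dynein regulator needed for the divisions of cortical progenitors (24657, 26606 and 19812 in the Zfp292-OE libraries, against 8482 and 5881 in the control libraries, log2 fold change 1.73, SE 0.19, limma adjusted p = 0.00059). Those that fell were Dctn1, the large subunit of dynactin (−0.92, adjusted p = 0.0088), and Dync1i1, the intermediate chain used in neurons (−1.36, adjusted p = 0.037). Of 18 neuronal tubulins, microtubule-associated proteins and neurofilaments, 0 rose, 8 fell and 10 missed the threshold, with a median of −0.35. The 8 that fell were 44.4% of this list, against 7.38% over all tested genes. Mapt, which encodes tau (−1.06, adjusted p = 0.0037), and the tubulins Tubb2a (−0.96, adjusted p = 0.0068) and Tubb4a (−1.27, adjusted p = 0.0084) had the smallest p in limma.

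**Figure D5:**
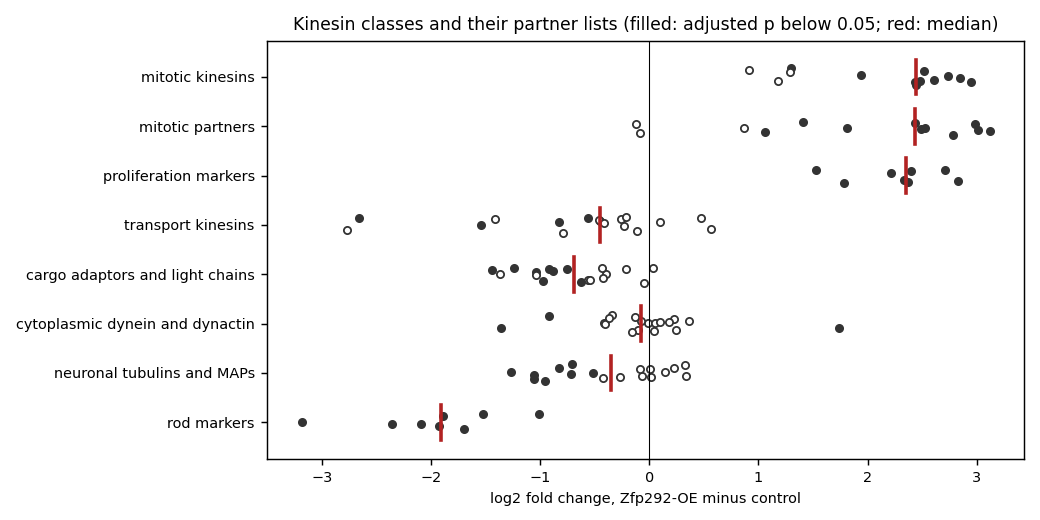
Log2 fold change, Zfp292-OE minus control (x axis), of each tested gene of the mitotic and transport kinesins, of the lists of their partners, and of proliferation and rod markers. Filled points passed in limma and red bars are medians, which are 2.45 for mitotic kinesins, 2.44 for their partners, −0.45 for transport kinesins and −0.69 for cargo adaptors and light chains.

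Of the kinesins in neither class, Kif9, a motor of motile cilia and sperm tails, read 211, 254 and 123 in the Zfp292-OE libraries, against 546 and 697 in the control libraries. The groups did not overlap and the gene fell (log2 fold change −1.71, SE 0.47, limma adjusted p = 0.035), but it missed the threshold without any 1 of the Zfp292-OE libraries (adjusted p = 0.085, 0.061 and 0.069 without libraries 1, 2 and 3). Kif7, a ciliary regulator of hedgehog signalling, read 156, 238 and 273 in the Zfp292-OE libraries, against 252 and 364 in the control libraries, with overlapping groups (log2 fold change −0.48, adjusted p = 0.53). Kif24, which restrains cilium formation in cycling cells, had 0.12 (95% interval −0.85 to 1.09), and Kif2a, a relative of Kif2c abundant in neurons, had −0.11 (95% interval −0.56 to 0.35). The other 5, Kif6, Kif19a, Kif26a, Kif26b and Kif27, had log2 fold changes of −2.68 to −0.23, and none passed in limma, edgeR or DESeq2. Kif26b, the lowest, had an unadjusted p of 0.038, and the other 4 had 0.074 or above.

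The order of the levels also differed. Per kb of transcript, the highest mean levels in Zfp292-OE were those of Kif22 (5253), Kif18a (4343), Kif5b (3199) and Kif21a (2709.8). In control they were Kif5b (2980.4), Kif21a (2934), Kif1b (2229) and Kif1a (2159), with Kif22 next (2086). These levels assume the longest coding transcript and were not tested between genes.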

How the data were processed

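The authors deposited 1 table for the 5 libraries, covering 24594 genes by Entrez identifier and symbol, with 0 columns of other samples. Its values are a normalised signal per gene, deposited as read counts divided by 1 factor per library: dividing by a library's lowest value above 0 gave whole reads for 100% of values, to within 1e-06 of a read. Total RNA (1.3 µg) went into a SMARTER kit for messenger RNA, per the labels' protocols. Builds GRCm38 and mm10 are named, per the submitters' processing notes. For the aligner, counter, scaling method and use of strand, each is not given in the sources used here.

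Genes with a mean of at least 10 went into limma 3.58.1 with an intensity trend (R 4.3.3), fitted on log2(value + 1), Zfp292-OE minus control, with no block, as planned for normalised values, Benjamini-Hochberg adjustment over all of them and a threshold of 0.05. Fold changes are on that scale, which understates those of low genes. edgeR 4.0.16 and DESeq2 1.42.0 ran on the recovered whole reads as alternatives, and edgeR called 2621 genes. Further settings tried were other pseudocounts (0.5 and 10), a mean of at least 50 or no filter, TMM, quantile and equal-total scaling, fits that each left out 1 library, and a replicate block. The scripts were tested on simulated data. The kinesin classes, partner lists and motifs were chosen with earlier results of these data known. Values per library are given for mitotic, transport and other kinesins past the threshold and for Kif1a, Kif3a, Kif5a, Kif5b, Kif5c and Kif17, and for further members of interest chosen after their values were seen. Of each partner list, the 3 genes with the smallest p are named, and a few others were added after their values were seen. Lists are described by counts and medians, with no test of their own. Positions and promoters come from RefSeq (GRCm38.p6), and transcript lengths, exon overlaps and shared stretches from GENCODE M21 (GRCm38). Python 3.11.15, pandas 2.3.3, numpy 2.4.6 and matplotlib 3.10.9 made tables and plots. Kinesin protein sequences were not used here.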

Additional observations from a re-analysis of the deposited data

How the results depend on the processing

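All 10 mitotic kinesins kept their calls under both pseudocounts, a mean of at least 50, TMM, quantile and equal-total scaling, edgeR, DESeq2 and the replicate block. With no filter limma called 365 of all genes, 0 kinesins higher and 1 lower, 0 of them mitotic and 1 a transport motor. The cause was not tested. With equal totals 8 kinesins were lower, 7 of them transport motors, whose median log2 fold change moved to −0.67, while the median of all genes moved to −0.27. In DESeq2 8 were lower, 7 of them transport motors, and 1 transport motor, Kif3a, was higher. Leaving out 1 library gave 0 to 2076 genes called in all, 0 to 11 kinesins higher (0 to 11 mitotic) and 0 to 3 lower (0 to 3 transport), the 0 being without either control, where 1 control library is assumed to vary like the others. The median difference between mitotic and transport kinesins was 2.90 and ranged from 2.61 to 3.12 in these fits.

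Both groups use the replicate numbers 1 and 2, and the labels do not say whether same-numbered libraries were paired. Deviations of same-numbered libraries from their group means correlated at −0.039 and −0.027. With 2 controls, the deviations of control library 1 mirror those of control library 2. The 2 values are thus not independent and do not settle whether libraries were paired. The replicate block called 2498 genes, with 11 kinesins higher and 4 lower. It lost Kif5c and Kif9, and added Kif14 and Kifc2. Replicate number 3 occurs only in Zfp292-OE, so the block took library 3 out of the comparison. The fold changes with the block were therefore those without that library (Kif14 1.30 in both), and the block is no separate check on them. The log2 fold change of Zfp292 was −0.21 after quantile normalization, −0.17 with equal totals, −0.011 with the replicate block and −0.033 to 0.12 without 1 library. None of the kinesins that changed sign had passed the test. Kif1c was 0.089, Kif26a 0.20, Kif27 0.066 and Kif5b −0.20 after quantile normalization. Kif24 was −0.095 and Kif5b −0.12 with equal totals. Kif26a was 0.11 and Kif2a 0.031 with the replicate block. Without 1 library, Kif1c ranged from −0.53 to 0.11, Kif21a from −0.23 to 0.0049, Kif24 from −0.025 to 0.40, Kif26a from −0.41 to 0.11, Kif2a from −0.29 to 0.031 and Kif5b from −0.0043 to 0.18. Kif17 had 34 reads in the 3 Zfp292-OE libraries together and 173 in the 2 control libraries, with wide spread within both groups.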
